A study of Apis mellifera with 27 samples.

Results

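Of 11497 honey bee genes known only by an identifier that starts with LOC, 226 had a daily course in mushroom body tissue with a fitted peak between 00:00 and 04:00. They were chosen on measured values. A gene had to average at least 5 CPM (counts scaled to a common library total) over the 27 libraries, which 7614 unnamed genes did. Its log2(CPM + 1), less the mean of its colony, was then fitted with a cosine of 24 h, and a gene was kept if the cosine described a share of the variance, R2, of at least 0.4 and peaked from 0 up to 4 h. The members are thus 2.97% of the candidates. Time of day chose them, so their peaks, ranges and differences between times are descriptions. Where a test over all genes used the same times, its counts are printed beside the background and nothing is read from them.

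The libraries came from foragers of Apis mellifera trained to a feeding time, and hold polyadenylated RNA of tissue enriched for small Kenyon cells by laser capture microdissection. Bees were collected at 06:00, 10:00, 14:00, 18:00 and 22:00 of day 11 and at 02:00 and 06:00 of day 12, from colony 2 (13 libraries) and colony 1 (14 libraries), in experiments run separately for each colony. The labels give no genotype or further treatment, so all groups share the training. Each time point has 4 libraries, 2 from each colony, except 06:00 of day 11, where 1 library of colony 2 and 2 of colony 1 were used and another of colony 2 was not analysed here. Libraries are named by time, colony and replicate (C2R1). The labels do not say whether replicates came from separate bees, so a p-value here sets differences against the scatter of these libraries alone, and that scatter may be technical.

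Small Kenyon cells are neurons intrinsic to the mushroom bodies, brain centres where insects form and store memories, and are implicated in memory for time of day in bees. Daily courses of transcripts are set in honey bees by a feedback loop in which Period and the mammalian-type cryptochrome Cry2 repress their own transcription. Many transcripts outside the loop follow with other phases. Light, feeding and sleep also set daily courses, and they cannot be told apart in a single time series of trained foragers.

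Total counts ranged from 5589770 to 12277539 per library. The tissue was checked against marker genes. Tk, a neuropeptide gene and the single small Kenyon cell marker matched by name, had 265 to 1539 CPM. Camkii and Mblk-1, enriched in large Kenyon cells, had at least 1549 and 642 CPM in every library. The captured tissue thus held transcripts of both classes. Of the other Kenyon cell genes matched, DopR2, Dop1, Ks-1 and Ip3k fell to 50.6, 52.9, 9.83 and 38.4 CPM. Their means were 275.6, 289.3, 23.6 and 57.9 CPM. Summed over the Kenyon cell list, 06:00 day 11 C2R2 had 2619 CPM and every other library at least 4894 CPM. On the first principal component, 3 colony 2 libraries had the highest scores: 06:00 day 11 C2R2 (71.7), 10:00 day 11 C2R1 (51.0) and 10:00 day 11 C2R2 (41.6), followed by 14:00 day 11 C2R1 at 32.9. Those 3 libraries had summed levels of 183 to 676 CPM for 6 muscle genes, against 15.4 to 246 CPM in the other 24, and of 278 to 360 CPM for 4 opsins, against 42.1 to 399 CPM. Their Eaat-2, the single glial marker matched, was at 117 to 205 CPM, against 28.6 to 169 CPM in the other 24. Kept among the 24, 14:00 day 11 C2R1 had 246 CPM for the muscle genes, 142 CPM of Eaat-2 and 128 CPM for the opsins. Also kept, 06:00 day 12 C2R2 had 399 CPM for the opsins, the highest of all libraries, 131.5 CPM of Eaat-2 and 144 CPM for the muscle genes. Its score on the first principal component was 11.2. Results without the 3 libraries thus still hold libraries near them on some of these measures. The 3 are all the colony 2 libraries of 06:00 day 11 and 10:00, so for that colony those times rest on libraries that stand apart. Results are given with and without the 3.

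The members were lowest in the morning and highest in the second part of the night. In 145 of the 226 the lowest mean was at 10:00, in 70 at 14:00 and in 11 at 18:00. The highest mean was at 02:00 in 108, at 06:00 of day 12 in 65, at 06:00 of day 11 in 43 and at 22:00 in 10. Averaged over all members, the deviation from the colony mean was 0.12 ± 0.18 at 06:00 of day 11 (SD, n = 3), -0.41 ± 0.087 at 10:00, -0.30 ± 0.047 at 14:00, -0.11 ± 0.088 at 18:00, 0.15 ± 0.053 at 22:00, 0.31 ± 0.20 at 02:00 and 0.27 ± 0.21 at 06:00 of day 12 on the log2 scale (n = 4 each). The spread between libraries was widest at 02:00 and at both 06:00 times.

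**Figure D1:**
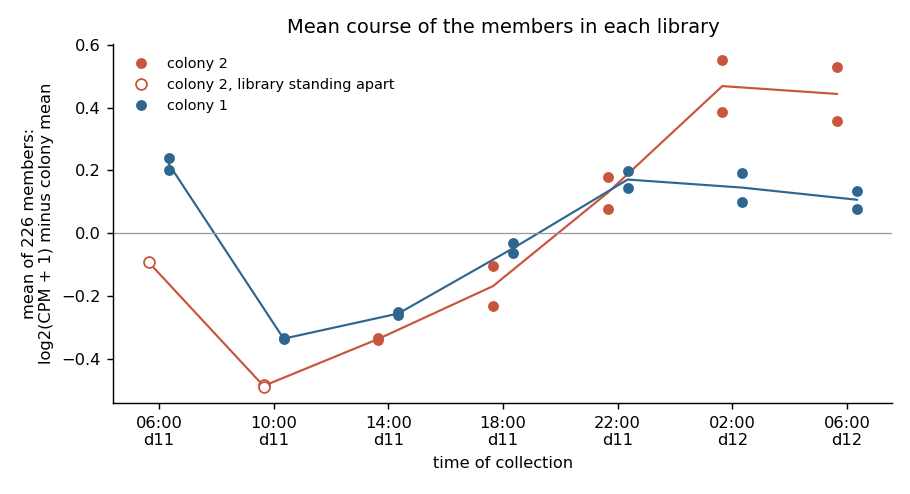
Mean over the 226 members of log2(CPM + 1) less the colony mean, for each library (points) against the time of collection, with lines through the mean of each colony and open points for the 3 libraries standing apart. Both colonies are lowest at 10:00, and colony 2 lies above colony 1 at 02:00 and 06:00 of day 12 and below it at 06:00 of day 11.

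The fitted peaks lay in the early part of the window, with 164 from 0 up to 2 h and 62 from 2 up to 4 h (median 1.34 h, quartiles 0.732 and 2.07 h). No library was collected between 22:00 and 02:00 or between 02:00 and 06:00, so a peak hour is an interpolation. The median peak-to-trough difference of the fitted cosine was 0.66 on the log2 scale, a 1.58-fold change, and it ran from 0.28 to 2.24 (1.22-fold to 4.74-fold). For 43 members it was at least 1. Ranges were wider in genes of low level: the median range was 1.16 in the 28 members below 20 CPM, 0.70 in the 115 members from 20 up to 100 CPM and 0.55 in the 83 members of at least 100 CPM. The median SD of their deviations over libraries fell in the same order, 0.58, 0.36 and 0.28. R2 of at least 0.4 asks for a wider range where that SD is larger, so nothing is read from this order. The members' mean levels had a median of 77.3 CPM, from 5.24 to 1854 CPM, against 65.7 CPM over all 7614 candidates.

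**Figure D2:**
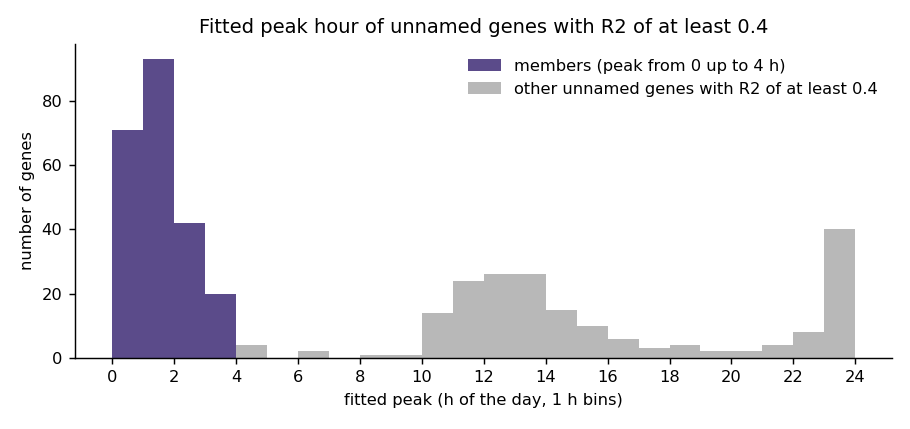
Number of unnamed genes of at least 5 CPM with R2 of at least 0.4 by fitted peak hour, in bins of 1 h. The members (purple) are 226 of the 418 such genes, 77 others peak from 12 up to 16 h and 54 from 20 up to 24 h.

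The window divides a continuous group. Of the 418 unnamed genes with R2 of at least 0.4, the 192 outside it had 54 with a peak from 20 up to 24 h, 77 from 12 up to 16 h, 40 from 8 up to 12 h, 15 from 16 up to 20 h and 6 from 4 up to 8 h. Just inside the early edge lay LOC724234 (0.0318 h) and LOC100576082 (0.0417 h), and just outside it LOC100577122 (23.95 h) and LOC412564 (23.9982 h). Just inside the late edge lay LOC412363 (3.90 h) and LOC551561 (3.92 h), and just outside it LOC102656131 (4.02 h) and LOC724647 (4.03 h). At the limit of R2, LOC100578370 (0.4005), LOC725612 (0.401) and LOC100576975 (0.403) were kept, and LOC100576722 (0.399), LOC726638 (0.398) and LOC408336 (0.397) were not. With libraries scaled by TMM, which corrects for a few abundant genes taking up reads, 157 of the 226 still met the rule and 204 still peaked in the window. Without the 3 libraries standing apart 211 of the 226 met it, among 558 genes that did. Without 02:00 day 12 C2R1 alone, 151 did.

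All 4 libraries of 02:00 lay above all 4 of 14:00 in 163 members, 72.1%, where 8.8% of the 7614 candidates had this order. The rule used the same times, so nothing is read from the comparison. edgeR's quasi-likelihood test of a cosine with Benjamini-Hochberg adjustment, run on all 9816 genes tested, called 148 members, with a background of 4.31% of genes, and its test over the 7 time points called 72, with a background of 2.29%. Both used the contrast that chose the members. All 226 passed the filter on low counts for these tests.

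**Figure D3:**
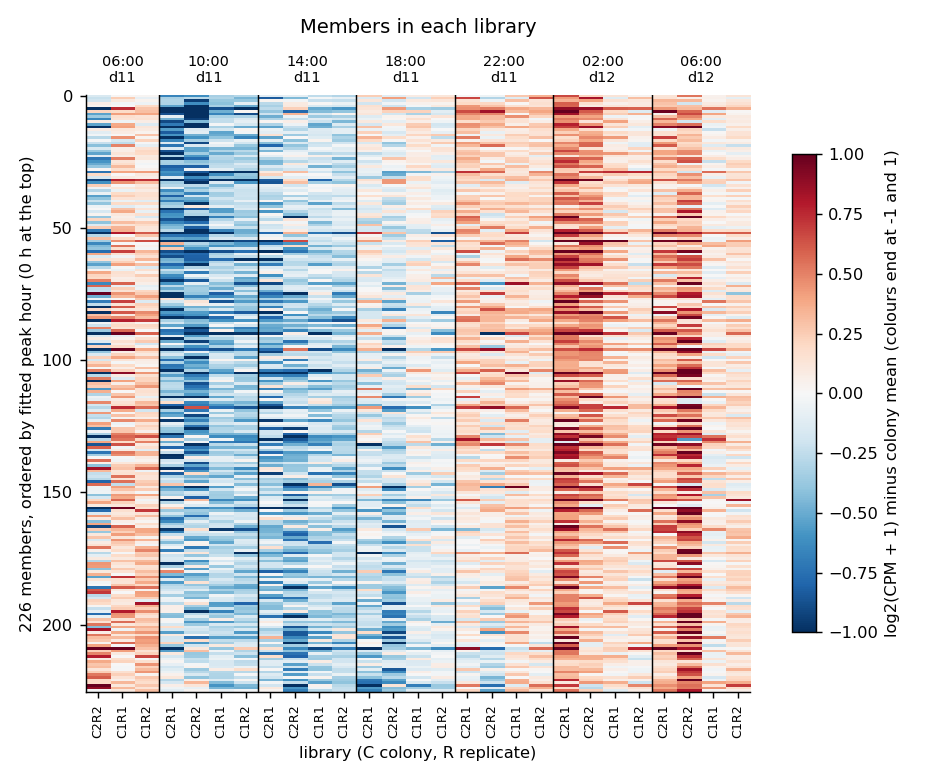
The 226 members (rows, ordered by fitted peak hour) in each of the 27 libraries (columns, grouped by time, colony 2 before colony 1), coloured by log2(CPM + 1) less the colony mean, with colours ending at -1 and 1. At most 31 of the 226 lay above the colony mean in any library of 10:00 or 14:00 (mostly blue), and 148 to 225 did in the libraries from 22:00 on (mostly red).

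LOC724449 had the highest R2 of the members, 0.753, and was the second most abundant at 668.5 CPM on average. At 02:00 it had 798 and 745 CPM in colony 2 and 743 and 692 CPM in colony 1. At 14:00 it had 599 and 494 CPM in colony 2 and 566 and 517 CPM in colony 1. Every library of 02:00 lay above every library of 14:00. Its course was shallow, with a log2 range of 0.44 and a peak at 2.21 h, and its peak hour was close in the 2 colonies fitted alone, 2.14 h in colony 2 and 2.35 h in colony 1.

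LOC409167 was the most abundant member. Its mean level was 1892 ± 166 CPM on the first morning (06:00 of day 11; SD, n = 3). The later times, with n = 4 each, gave 1542 ± 73.1 CPM (10:00), 1799 ± 142 CPM (14:00), 1718 ± 42.3 CPM (18:00), 1879 ± 104 CPM (22:00), 2060 ± 109 CPM (02:00) and 2099 ± 173 CPM (06:00 of day 12). Its low point was at 10:00 and it was already back within 1 SD of its 06:00 level of day 11 at 14:00, so the cosine, with R2 of 0.437, describes it less well. LOC551890, at 517 CPM, peaked later, at 2.88 h, and LOC410286, at 329 CPM, at 1.63 h.

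LOC726187 averaged 637 CPM. At 02:00 it had 816 and 789 CPM in colony 2 and 816 and 712 CPM in colony 1, and at 10:00 it had 298 and 297 CPM in colony 2 and 598 and 605 CPM in colony 1. The libraries of both colonies were at the same level at 02:00 and did not overlap at 10:00, where both colony 2 libraries are among those standing apart. At 14:00, with none of those libraries, it had 476 and 493.4 CPM in colony 2 and 510 and 558 CPM in colony 1. The lower of these colony 2 values is from C2R1, which scored next after the libraries standing apart on the first principal component.

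**Figure D4:**
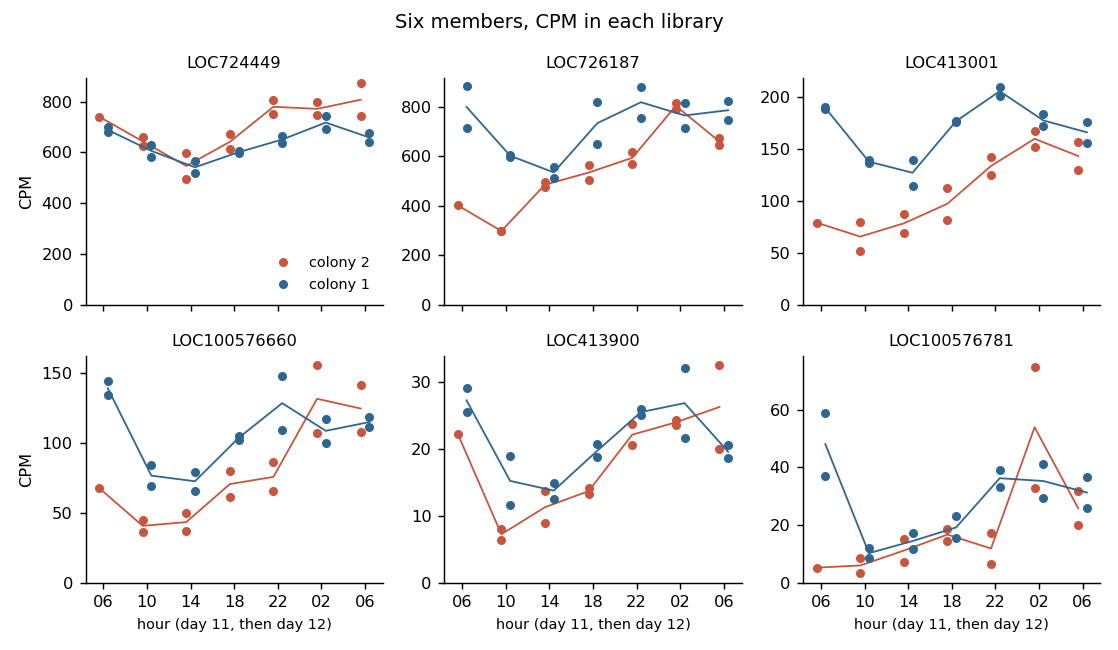
CPM of 6 members in each library (points) with the mean of each colony (lines), by hour of collection from 06:00 of day 11 to 06:00 of day 12; each panel starts at 0. At all 7 times LOC724449 has a higher mean and LOC413001 a lower mean in colony 2, and LOC100576781 has a single library of 74.8 CPM at 02:00.

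The members with the next highest R2 were LOC413900 (0.652), LOC727260 (0.636), LOC726216 (0.614), LOC410057 (0.614), LOC102653621 (0.613), LOC413400 (0.609), LOC413001 (0.609), LOC726651 (0.589) and LOC100576660 (0.587). LOC413900 is a gene of low level, with 24.3 and 23.5 CPM in colony 2 and 32.0 and 21.6 CPM in colony 1 at 02:00. At 14:00 it had 8.91 and 13.6 CPM in colony 2 and 14.9 and 12.5 CPM in colony 1. The libraries of the 2 times did not overlap. At 06:00 of day 12 its C2R2 library, at 32.45 CPM, stood above the other 3, at 18.6 to 20.5 CPM. In LOC410057 the colonies fitted alone gave peaks at 3.57 h in colony 2 and 0.585 h in colony 1.

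Among members of at least 10 CPM, the widest fitted ranges belonged to LOC100576781 (1.80 on the log2 scale), LOC412230 (1.59), LOC100577358 (1.59), LOC725821 (1.54), LOC726591 (1.52), LOC412863 (1.49), LOC412174 (1.44), LOC551556 (1.43), LOC552276 (1.30) and LOC409179 (1.26). LOC100576781 had 74.8 and 32.9 CPM in colony 2 and 41.0 and 29.5 CPM in colony 1 at 02:00. At 10:00 it had 8.41 and 3.52 CPM in colony 2 and 8.58 and 11.9 CPM in colony 1. At 22:00 the colonies were apart, with 17.3 and 6.34 CPM in colony 2 and 39.2 and 33.2 CPM in colony 1. LOC725821 and LOC726591 had most of their range in colony 2, with 2.48 and 2.13 on the log2 scale there and 0.60 and 0.93 in colony 1.

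RefSeq's gene table for assembly Amel_HAv3.1, used for gene type and for which genes neighbour each other, holds all 226 members. It lists 222 as protein-coding, 98.2%, against 96.6% of the candidates, and 4 as long noncoding RNAs, 1.77% against 3.26%. No product name was given for any of them, so what they encode is not described here. The noncoding RNA LOC102653621 had 34.3 and 31.3 CPM in colony 2 and 28.9 and 22.6 CPM in colony 1 at 02:00. At 14:00 it had 8.49 and 14.8 CPM in colony 2 and 11.1 and 11.8 CPM in colony 1. Its libraries of the 2 times did not overlap, and its log2 range was 1.11. The other 3 noncoding members, LOC107964289, LOC113219291 and LOC107964461, had 5.24, 9.79 and 8.30 CPM on average and ranges of 1.88, 1.27 and 2.24.

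Few members were neighbours. In 9 pairs both genes were members, which makes 18 members, 7.96%, next to another member, and 4.71% of the other candidates were next to a member. LOC100576660 and LOC410286, whose spans do not overlap, were the most alike of the pairs. Their correlation was 0.909 over the 27 libraries, on log2(CPM + 1) less the colony mean. Both genes share each library's time and depth, and all members were chosen for a like course. At 02:00 LOC100576660 had 156 and 108 CPM in colony 2 and 118 and 100 CPM in colony 1, and LOC410286 had 441 and 384 CPM in colony 2 and 386 and 342 CPM in colony 1. At 14:00 LOC100576660 had 36.8 and 50.1 CPM in colony 2 and 65.8 and 79.6 CPM in colony 1, and LOC410286 had 201 and 215 CPM in colony 2 and 275 and 294 CPM in colony 1. Both genes were lower at 14:00 in each colony, with no overlap between the times.

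The other pairs were less alike. LOC410566 and LOC409405 had a correlation of 0.755, LOC726791 and LOC100576265 of 0.649, LOC413001 and LOC551890 of 0.564, LOC107963968 and LOC552482 of 0.540, LOC552186 and LOC100578370 of 0.534, and LOC725685 and LOC551980 of 0.435. LOC552653 with LOC412457 and LOC551314 with LOC724170 have overlapping spans, with correlations of 0.481 and 0.345. Since the strand setting is unknown, reads of overlapping genes may be shared. The span of 85 members, 37.6%, overlaps that of a neighbouring gene, against 34.7% of the candidates, among them LOC413900, LOC102653621, LOC410286, LOC552276 and LOC100576855.

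Each colony was next fitted alone, to see whether both carried the course. Fitted alone, 192 members peaked in the window in colony 2 and 186 in colony 1, where 23.3% and 25.9% of the candidates did. Without the 3 libraries standing apart it was 156 in colony 2, against 24.1% of the candidates. Both colonies helped to choose the members, so these counts are a description. Genes chosen in 1 colony alone give a reading in libraries that did not choose them. The rule applied to colony 2 chose 520 genes, of which 256, 49.2%, peaked in the window in colony 1, against 25.7% of the candidates. Applied to colony 1 it chose 680 genes, of which 298, 43.8%, peaked in the window in colony 2, against 23.5% of the candidates. Those that also reached R2 of 0.4 in the other colony were 26.5% of the genes chosen in colony 2, against 8.89% of the candidates, and 20.4% of the genes chosen in colony 1, against 6.92%. With colony 2 reduced to its 10 libraries that did not stand apart, 42.3% of the genes chosen in colony 1 peaked in the window. For genes chosen in this way, the course was seen again in the other colony more often than among the candidates at large. It was seen again in fewer than 1 in 2 of them. Of these genes, 170 of the 520 and 162 of the 680 were members, so this is a reading on a wider group than the members.

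The colonies differed in when the members were highest. In colony 2 the highest mean was at 02:00 in 105 members, at 06:00 of day 12 in 75, at 06:00 of day 11 in 36 and at 22:00 in 10. In colony 1 it was at 06:00 of day 11 in 100 members, at 22:00 in 66, at 02:00 in 32, at 06:00 of day 12 in 25 and at 18:00 in 3. The lowest mean was at 10:00 in 121 members in colony 2 and in 146 in colony 1. In colony 1 the members' mean deviation was 0.22 at 06:00 of day 11, 0.17 at 22:00 and 0.14 at 02:00, so the hour of 02:00, at which the cosine peaks, was the time of the highest mean in few members of colony 1. Such counts were not made for the candidates in each colony. Over both colonies, the candidates' highest mean was at 06:00 of day 11 in 28.0% and at 02:00 in 15.1%. Their lowest was at 10:00 in 29.25%. Whether the members' counts per colony differ from those of the candidates was not tested.

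The cosine peaked later in colony 2 in 155 members, 68.6%, with a median difference of 0.805 h. Among the other 192 unnamed genes with R2 of at least 0.4, 40.1% peaked later in colony 2. Without the 3 libraries standing apart 202 members, 89.4%, peaked later in colony 2, against 56.8% of those others. The fitted range was wider in colony 2 in 210 members, 92.9%, with medians of 0.87 in colony 2 and 0.48 in colony 1. It was also wider in colony 2 in 83.7% of all candidates, whose replicates there varied more, with a common biological coefficient of variation of 0.389 in colony 2 and 0.178 in colony 1. On the same unlike times, without the 3 libraries, 187 members, 82.7%, had the wider range in colony 2, against 76.0% of the candidates.

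Each colony's mean was removed before the members were chosen, so the rule did not use the colony difference directly. The same libraries gave both the daily course and the colony levels, however. A gene low in the daytime libraries of colony 2 gains on both, so the counts below are not independent of the rule. The question was whether members were at different levels in colony 2 and colony 1 over the same times. More of them were lower than higher in colony 2: 62 were lower, 27.4%, where the background of genes lower in colony 2 was 14.3% of the 9816 tested, and 11 were higher, 4.87%, with a background of 10.6% (edgeR's quasi-likelihood test with time point as a term, Benjamini-Hochberg). Of the 7614 candidates 17.3% were lower and 12.7% higher. The median log2 difference was -0.18 over the members and -0.04 over all genes tested, and 176 members lay below 0, called or not. Without the 3 libraries standing apart 29 members were lower and 4 higher, with backgrounds of 7.27% and 5.01%. With both libraries of a colony and time point summed, edgeR called no member, with backgrounds of 0.137% lower and 0.098% higher of 10201 genes. At an unadjusted p under 0.05 in that fit there were 56 members lower, 24.8%, and 6 higher. Of all genes in it, 14.2% were lower and 10.3% higher. The colonies were studied in separate experiments, so colony and experiment cannot be told apart.

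LOC413001 was lower in colony 2, with 51.9 to 168 CPM and a median of 113 CPM in 13 libraries of colony 2, against 115 to 210 CPM and a median of 177 CPM in 14 libraries of colony 1. Its mean was lower in colony 2 at all 7 time points, and 7 of the colony 2 libraries lay below every colony 1 library. The log2 difference was -0.61, SE 0.0925 (edgeR, adjusted p = 0.000131). The colonies were nearest at 02:00, with 152 and 168 CPM in colony 2 and 184 and 172 CPM in colony 1.

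LOC727108 had a median of 182 CPM in colony 2, from 129 to 281 CPM, against 271 CPM in colony 1, from 232 to 317 CPM. Its log2 difference was -0.51, SE 0.0789 (edgeR, adjusted p = 0.000139). It was lower in colony 2 at 6 of 7 time points, and at 02:00 the libraries overlapped, with 281 and 264 CPM in colony 2 and 264 and 276 CPM in colony 1. LOC552276, with a median of 7.195 CPM in colony 2 and 18.4 CPM in colony 1, had a log2 difference of -1.16, SE 0.206 (edgeR, adjusted p = 0.000454). LOC100578820 and LOC411750, with medians of 31.3 and 121 CPM in colony 2 and of 53.9 and 164 CPM in colony 1, had log2 differences of -0.59, SE 0.0991 and -0.33, SE 0.0577 (edgeR, adjusted p = 0.000240 and 0.000365). All 3 were lower in colony 2 at all 7 time points.

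LOC100576855 was higher in colony 2, with a median of 26.1 CPM, from 13.1 to 36.7 CPM, against 14.4 CPM in colony 1, from 7.95 to 26.8 CPM. Its log2 difference was 0.84, SE 0.146 (edgeR, adjusted p = 0.000327), with the same direction at all 7 time points. LOC412363 had a log2 difference of 0.39, SE 0.1001 (edgeR, adjusted p = 0.00635), and 78.5 CPM in 06:00 day 11 C2R2 against 43.1 and 37.7 CPM in colony 1 at that time. Without the 3 libraries standing apart its difference was 0.21 with an adjusted p of 0.133. LOC727288 was also higher in colony 2, by 0.24 on the log2 scale (SE 0.0679, edgeR, adjusted p = 0.0112). LOC552664 was higher by 0.29 (SE 0.0856, adjusted p = 0.0149) and LOC107963962 by 0.25 (SE 0.0761, adjusted p = 0.0185) in the same edgeR test. The last 2 were not called without the 3 libraries, with adjusted p = 0.197 and 0.0859 and differences of 0.18 and 0.21.

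The lower level in colony 2 was not the same at every time. Members with a lower mean CPM in colony 2 were 77.9% at 06:00 of day 11, 79.6% at 10:00, 81.4% at 14:00, 91.2% at 18:00 and 85.8% at 22:00, and then 31.9% at 02:00 and 35.8% at 06:00 of day 12. Over the candidates the shares were 53.9%, 60.6%, 61.5%, 69.3%, 60.2%, 50.6% and 43.4% at the same times. At 14:00, 18:00 and 22:00, where none of the 3 libraries standing apart was collected, most members were lower in colony 2, and at 02:00 and 06:00 of day 12 most were not. Of these times, 14:00 includes C2R1 of colony 2, which scored next after the 3 on the first principal component, at 32.9. The colony 2 libraries of 18:00 and 22:00 scored at most 7.72. Of the 62 members called lower in colony 2, 16 were lower at all 7 time points, and of the 11 called higher, 2 were higher at all 7. The time course chose the members, and whether it differed between colonies was not tested for them.

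**Figure D5:**
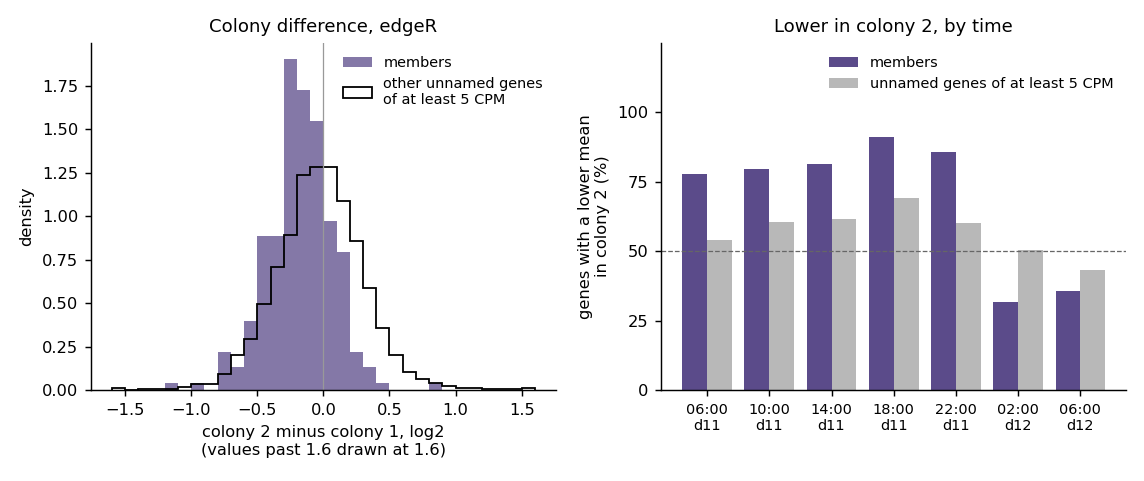
Left, density of the log2 difference of colony 2 minus colony 1 (edgeR) in the members (filled) and in the other unnamed genes of at least 5 CPM (line). Right, the share of members (purple) and of all unnamed genes of at least 5 CPM (grey) with a lower mean in colony 2 at each time, with a dashed line at 50%; the members are above it up to 22:00 and below it at 02:00 and 06:00 of day 12.

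The 2 mornings give a view of how well the course closed after 24 h. A cosine is equal at both, but a gene with a large difference between them could hardly reach R2 of 0.4, which limits the members' differences. In edgeR's quasi-likelihood test of 06:00 of day 12 against 06:00 of day 11, 0 members passed, with a background of 0% of 9816 genes, and the smallest adjusted p of a member was 0.369. At an unadjusted p under 0.05 there were 12 members, 5.31%, and 11.6% of all genes, and DESeq2 called 0 members and 1 gene. The members' median log2 difference was 0.10, with 151 above 0. This joins unlike colonies: the mean deviation of the members on day 12 less that on day 11 was 0.54 in colony 2 and -0.11 in colony 1. In colony 2 the day 11 value rests on a single library, which is one of the 3 that stand apart.

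Cell composition could differ between libraries, and in bulk tissue fewer cells of a type and less RNA per cell cannot be told apart. Eaat-2, a glutamate transporter of glia, was at 28.6 and 52.0 CPM in colony 2 and 39.8 and 57.2 CPM in colony 1 at 02:00. At 10:00 it was at 144 and 117 CPM in colony 2 and 71.8 and 169 CPM in colony 1. All 4 libraries of 10:00 lay above all 4 of 02:00. Non-overlap of these 2 times was not counted in the members. The 6 muscle genes had 19.2 to 174 CPM in all at 02:00 and 90.03 to 676 CPM at 10:00, and TpnT and TpnI were at 0 in at least 1 library. Of the 6 gland and fat body genes Hbg3 gave most of the summed level, which was 16.2 to 642 CPM at 02:00 and 246 to 292 CPM at 10:00, and 5 were at 0 in at least 1 library. The 4 opsins had 42.1 to 181 CPM at 02:00 and 42.8 to 360 CPM at 10:00, and Lop1, at 106 CPM on average, gave most of the sum. Uvop, the ultraviolet opsin, averaged 31.9 CPM and had a fitted peak at 1.21 h with R2 of 0.384, in the members' hours but under their limit on R2. It passed edgeR's cosine test over all genes (adjusted p = 0.0490), and its log2 difference between colony 2 and colony 1 was -0.60 (SE 0.157, adjusted p = 0.00691). The other opsins peaked elsewhere, Lop1 at 9.76 h, Blop at 11.7 h and Lop2 at 20.5 h, with R2 from 0.103 to 0.204. Lop1 and Blop were higher in colony 2, by 1.705 and 1.13 (edgeR, adjusted p = 0.00781 and 0.0353). Lop2 differed by -0.32 (adjusted p = 0.758). Tk was at 1025 to 1367 CPM at 02:00 and 752 to 1282 CPM at 10:00. The part of these lists in the members' course was not tested.

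Among genes that do carry a name, 9 of 257 with a mean of at least 5 CPM, 3.50%, met the same rule. They were rtGEF, SPG11, a gene of lysosome maintenance in mammals, INTS8, a subunit of the Integrator complex that processes RNA, Rfwd3, related to a mammalian ubiquitin ligase of DNA repair, nAChRa8, a subunit of nicotinic acetylcholine receptors, Kr-h1, a transcription factor induced by juvenile hormone, Ant, the exchanger of ADP and ATP in mitochondria, Dnmt1a, a DNA methyltransferase, and Adk1. rtGEF had the highest R2 of these, 0.625, with 274 and 222 CPM in colony 2 and 244 and 235 CPM in colony 1 at 02:00. At 10:00 it had 134 and 116 CPM in colony 2 and 137 and 177 CPM in colony 1. The 2 times did not overlap. Dnmt1a had 51.6 and 43.6 CPM in colony 2 and 36.9 and 40.8 CPM in colony 1 at 02:00, and 16.3 and 13.3 CPM in colony 2 and 37.5 and 26.8 CPM in colony 1 at 10:00. In colony 1 its libraries of the 2 times overlapped. The fitted peaks of the 9 ran from 0.521 h in nAChRa8 to 2.42 h in Kr-h1, and their log2 ranges from 0.25 in Ant to 0.83 in INTS8.

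Of the clock genes listed, Cry2, Per and E75 could be matched by name. Cry2 had its fitted peak at 22.2 h with R2 of 0.547, and 22.7 and 29.98 CPM in colony 2 and 24.6 and 23.8 CPM in colony 1 at 22:00. At 10:00 it had 3.76 and 0 CPM in colony 2 and 5.61 and 7.40 CPM in colony 1. Per had R2 of 0.187 and E75, a nuclear receptor, of 0.00501. In edgeR's cosine test over all genes Cry2 passed (adjusted p = 0.0186), Per and E75 did not (adjusted p = 0.327 and 0.862), and none of the 3 passed over the 7 time points. Cry2 thus met the limits on level and R2 but peaked before the window that defines the members.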

How the data were processed

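The deposited table holds raw counts per gene, whole numbers not normalized by the authors, from stranded libraries of polyadenylated RNA, per the labels' protocols. The submitters' processing notes name Trimmomatic, FastQC, STAR, featureCounts and DESeq2 without versions; build, annotation and strand setting are not given in the sources used here. Hence no coordinates are printed and overlapping genes are uncertain. Sequences were not used here. CPM was computed from column sums, which lets a few abundant genes move the rest; a pseudocount of 1 CPM was added before log2. Counts were tested in R 4.3.3 with edgeR 4.0.16 (filterByExpr by time point, TMM, glmQLFit robust, glmQLFTest) on all 27 libraries, leaving 9816 genes, with colony and time point, or colony, cosine and sine, as terms; an SE was taken as the absolute log2 difference divided by the root of its F value. Calls are Benjamini-Hochberg adjusted p under 0.05. DESeq2 1.42.0, other filters and scalings, and leaving out libraries were the alternatives. The scripts' tests were checked on simulated data. A count of 0 allows up to 3 counts, for counting error only. Members and lists were chosen with earlier results of these data known. Genes were named by rule: highest R2, widest range, highest level, smallest p between colonies, nearest the limits, neighbours, noncoding members and named genes meeting the rule. Searches of promoters and a comparison of proteins were planned and not run.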

Additional observations from a re-analysis of the deposited data

Results flagged for a closer look

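At 06:00 of day 12, LOC413900 had 32.45 CPM in C2R2 and between 18.6 and 20.5 CPM in the other 3 libraries, a gap large for a group of 4. Among 96 groups of 4 libraries examined, for the members shown and for the mean deviation of all members, it was the single such case. Chance gives such a gap in about 1 in 20 groups, so 1 among 96 is not more than chance gives.

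The members' mean deviation at 06:00 of day 12 less that at 06:00 of day 11 was 0.537 in colony 2 and -0.113 in colony 1, a difference of 0.650 on the log2 scale. Both day 12 libraries of colony 2 lay above its day 11 library, and both of colony 1 lay below its day 11 libraries. This difference was not tested. Both orders held in 68 members, 30.1%, and in 9.51% of the 7614 candidates. The day 11 value of colony 2 comes from 1 library, 06:00 day 11 C2R2, which stands apart and had 265 CPM of Tk against at least 752 CPM in every other library. The part of that library in the difference was not tested.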

How the results depend on the processing

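The number of genes meeting the rule was 63 at R2 of at least 0.5, 558 without the 3 libraries standing apart, 680 in colony 1 alone, 520 in colony 2 alone, 464 on the mean log2 of each colony and time point, and 154 (without 02:00 day 12 C2R1) to 438 (without 06:00 day 11 C2R2) when 1 library was left out. It was 224 and 236 with pseudocounts of 0.5 and 5 CPM, 159 with TMM scaling, and 241 and 215 at a minimum of 1 and 10 CPM. Genes called between colonies were 2449, 1227 without the 3 libraries, 24 with libraries summed, and 2044 to 2687 with 1 left out. Members lower in colony 2 were 29, 0 and 50 to 78 in those settings, and members higher 4, 0 and 7 (without 06:00 day 11 C2R2) to 11, or 6 with no filter. Between the mornings DESeq2 called 1 gene, and leaving out 1 library gave 0 to 366 genes and 0 to 1 members, the highest without 06:00 day 11 C1R1. Cosine genes were 904 in DESeq2, 874 without the 3 libraries, 0 with libraries summed (972 at unadjusted p under 0.05), and 178 to 1061 with 1 left out. Members among them were 0 and 59 to 193 in the last 2 settings; they were 59 without 02:00 day 12 C2R1, 88 without 02:00 day 12 C2R2 and 82 without 10:00 day 11 C1R2. The cause of these changes was not tested. Signs were followed only for the members given above with a log2 difference between colonies and its SE, and none of these changed sign. The share of the other unnamed genes with a later peak in colony 2, a description with no test, was 40.1% and was 56.8% without the 3 libraries. In the latter fit colony 2 had no library of 06:00 of day 11 or of 10:00, unlike colony 1.

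Replicate numbers were not treated as pairs in the main fits. Differences between the replicates correlated between time points from -0.14 to 0.384 in colony 1, with a median of 0.052 and 8 of 21 over 0.1. In colony 2 the correlations ran from -0.271 to 0.228, with a median of -0.014 and 2 of 15 over 0.1. With the replicate block, 254 genes met the rule, including all 226, and 61 members were lower and 11 higher in colony 2. Cosine genes were 328 with the block and 423 without it, and members among them 119 and 148. Fewer counts in colony 2, down to 5589770, limit what its low-level members can show.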
